A study of Homo sapiens with 4 samples.

Results

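FOXA2 binding sites that were called in both conditions but covered a shorter stretch of DNA after LSD1 inhibition are described here. They come from FOXA2 ChIP-seq (sequencing of DNA immunoprecipitated with the protein) in PC3, an androgen-independent human prostate cancer cell line. Cells in medium with 5% charcoal-stripped serum received either 50 µM GSK2879552 for 4 hours or vehicle, for which no separate duration is stated. Each group has 1 peak list covering 2 sequencing lanes, which the labels call technical replicates. The assay is taken from the sample titles, since the descriptions of the same samples speak of ATAC-seq. A single list per group leaves the spread between cultures unknown. No difference below was therefore tested, and each one is between 2 libraries.

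A narrowed pair is a GSK2879552 peak and a vehicle peak on chromosomes 1 to 22 or X that are each other's best partner by overlapped bases, with summits 80 bp or less apart. The vehicle peak is under 400 bp wide and the GSK2879552 peak is at least 80 bp narrower. This rule was met by 1862 pairs, which hold 12.5% of the 14846 GSK2879552 peaks and 8.74% of the 21308 vehicle peaks. Of 13200 pairs of best partners in all, 10873 met every criterion except the width difference, so 17.1% of these were narrowed. The pairs were selected on their measured widths and summit positions, whose values are given as a description. The summit heights come from the same comparison and are likewise described without a test.

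FOXA2 is a forkhead protein whose DNA-binding domain resembles that of a linker histone. It can bind its sites in compact chromatin and thereby opens them to other regulators, and in prostate cancer it is known for its presence in tumours of neuroendocrine type. LSD1 (KDM1A) removes mono- and dimethyl marks from histone H3, works in complexes with CoREST and histone deacetylases, and can also demethylate proteins other than histones. GSK2879552 blocks it irreversibly by reacting with its flavin cofactor. A ChIP-seq peak interval is the stretch over which the stacked DNA fragments exceed the peak caller's limit. Its width therefore reflects fragment length, summit height and that limit as well as the DNA bound, and it is much longer than the footprint of the protein.

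Narrowed sites were wide in vehicle, which the rule favours, and nearer the shortest possible interval after GSK2879552. The median vehicle width over all 10873 pairs was 281 bp. The GSK2879552 interval measured 199 bp at the median (interquartile range 176 to 233, lowest 168, highest 319), against 314 bp (285 to 349, lowest 248, highest 399) for the vehicle interval. The median difference was 102 bp (89.3 to 122, highest 230), and the GSK2879552 interval had a median of 66.3% of the vehicle width. Together the intervals covered 387 kb in GSK2879552 and 591 kb in vehicle. The loss was 100 bp or more at 1000 sites, 150 bp or more at 163 and 200 bp or more at 14. At 57 sites the GSK2879552 interval was 50% of the vehicle width or less. At 308 sites (16.5%, exact 95% binomial interval 14.9 to 18.3) the GSK2879552 interval was at 168 bp, the shortest in its list, so the loss there could not have been read as larger. Intervals on shares cover counting error only, here and below.

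The whole set of pairs was shifted towards narrower GSK2879552 intervals, and the narrowed pairs are one side of that distribution. Over the 10873 pairs the vehicle interval was longer by a median of 30 bp (interquartile range -1 to 65, SD 53.7), and 73.8% had the narrower interval in GSK2879552. The shortest interval, which MACS2 sets by default to its fragment length, was 168 bp in the GSK2879552 list and 175 bp in the vehicle list, 7 bp apart. With each width taken less the shortest of its list, 1512 pairs were narrowed. The mirrored rule, a vehicle interval at least 80 bp narrower than a GSK2879552 interval under 400 bp, was met by 186 pairs, 1.62% of the 11463 pairs that met its other criteria. Narrowed pairs thus outnumbered widened pairs by 10.01 to 1 (95% interval 8.61 to 11.7), and by 5.91 to 1 (5.17 to 6.77) with each width taken less the shortest of its list. When each width difference was taken from the median difference, 664 pairs lay 80 bp or more on the narrower side and 598 on the wider side, a ratio of 1.11 (0.993 to 1.24). Both of these settings were chosen after seeing the data.

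**Figure D1:**
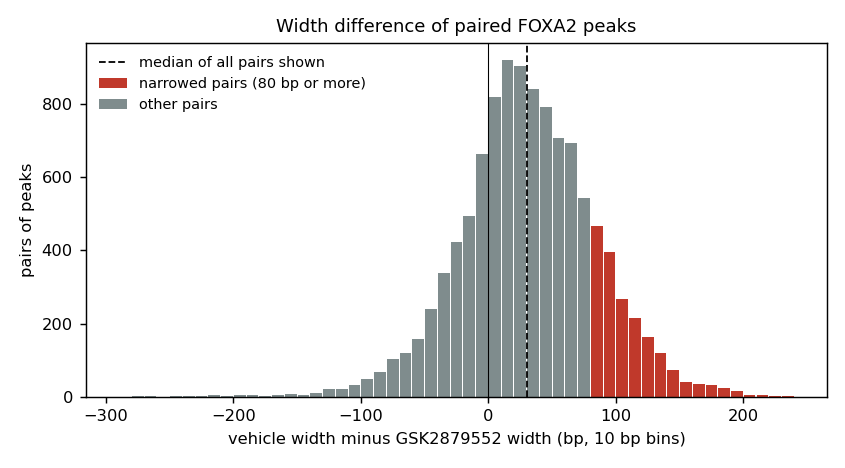
Number of pairs of FOXA2 peaks (vertical axis) by vehicle width minus GSK2879552 width in 10 bp bins (horizontal axis), for 10873 pairs that met every criterion except the width difference. The 1862 narrowed pairs are the red bars from 80 bp upward, and the dashed line at 30 bp is the median of all pairs shown.

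Both edges of the interval lay further in at most narrowed sites. In 1623 of 1862 pairs (87.2%, 85.6 to 88.7) the GSK2879552 interval started after and ended before the vehicle interval, against 41.1% of all 10873 pairs. Since a large loss of width requires inward edges, this share is partly fixed by the rule. The loss was split evenly over the genome's direction: the edge at the lower coordinate moved inward by a median of 51 bp (29 to 76) and the edge at the higher coordinate by 55 bp (31 to 78). The lower-coordinate side held 48.7% of all bases lost and the other side 51.3%. One side held 75% or more of the loss at 803 narrowed sites (43.1%, 40.9 to 45.4). No such share is given for all 10873 pairs, because only 73.8% of them lost width and the rest had no loss to divide.

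The side that lost more was the side on which the vehicle peak reached further from its summit at 1115 of 1826 narrowed sites with unequal losses (61.1%, 58.8 to 63.3), against 3198 of 5739 remaining pairs of like width (55.7%, 54.4 to 57.01). Remaining pairs of like width are those that met every other criterion and had a vehicle width of 248 bp or more, the least at which an 80 bp loss was possible, but lost less than 80 bp or none. Lopsided vehicle peaks made up a larger share of narrowed sites than of remaining pairs of like width, a difference that was not tested. Neither vehicle width nor height was held alike here. Median vehicle width was 314 bp at narrowed sites and 300 bp at the remaining pairs. The flanks on either side of the summit differed by 50 bp or more at 595 of 1862 sites (32%, 29.8 to 34.1). The same was found at 1044 of 5879 remaining pairs of like width (17.8%, 16.8 to 18.8). Among the lopsided narrowed sites with unequal losses, the longer vehicle flank lost more at 435 of 593 (73.4%, 69.6 to 76.9). For the lopsided remaining pairs this was so at 666 of 1038 (64.2%, 61.2 to 67.1). Loss and flank length were measured from the same vehicle edge, so a flank read as long through noise tends to lose more. Only 74.7% of the remaining pairs of like width had the narrower interval in GSK2879552, and the rest had no net loss. The differences between the groups in the side that lost more are therefore not interpreted. The vehicle summit lay inside the GSK2879552 interval at 99.1% of narrowed sites and 99.6% of all 10873 pairs, a share that the limit on summit distance largely fixes. Summits of the narrowed pairs lay a median of 22 bp apart (10 to 39), against 19 bp (8 to 34) in the remaining pairs. More than 1 GSK2879552 peak was overlapped by 1 narrowed vehicle interval. The limits on vehicle width and summit distance leave little room for another peak, and no such count is given for other pairs. Whether splits of vehicle peaks were rare can therefore not be read from this count.

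**Figure D2:**
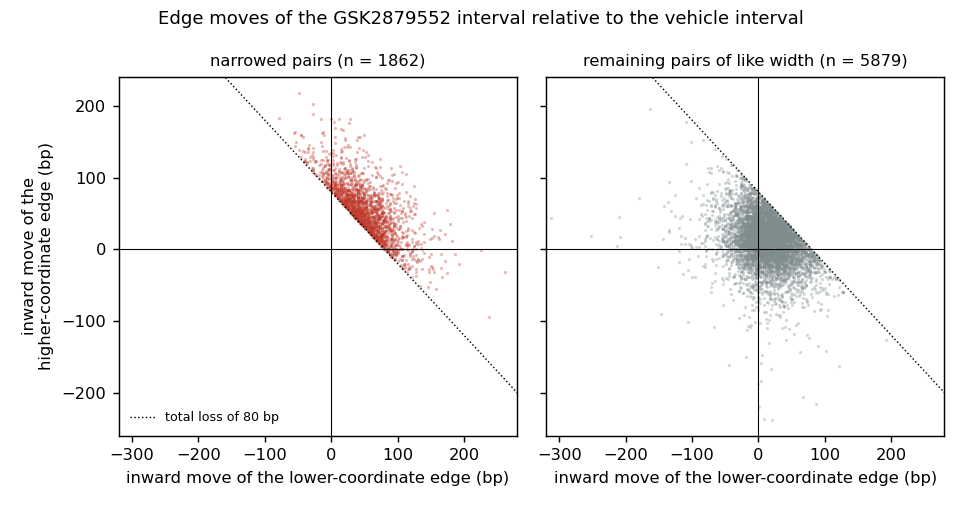
Inward move in bp of the edge at the lower coordinate (horizontal axis) and of the edge at the higher coordinate (vertical axis), GSK2879552 interval relative to vehicle interval, 1 point per pair, for 1862 narrowed and 5879 remaining pairs of like width. Narrowed pairs lie beyond the dotted line of 80 bp total loss, 87.2% of them with both edges moved inward; values below 0 are edges that moved outward.

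At the 10 sites with the largest losses, the summit was covered by 11 to 16 fragments in GSK2879552 and 13 to 30 in vehicle. At chr3:4786134-4786531 (all intervals given are vehicle intervals on hg19) the peak spanned 168 bp in GSK2879552 and 398 bp in vehicle. Its summit was covered by 14 fragments in GSK2879552 and 21 in vehicle, and the lower-coordinate side lost 175 bp and the other side 55 bp. The site at chr4:159243080-159243477 had the same widths, with 12 fragments in GSK2879552 and 16 in vehicle, and lost 261 bp on the lower-coordinate side while the other edge moved 31 bp outward. At chr7:100626804-100627196, 168 bp in GSK2879552 and 393 bp in vehicle, the loss (226 bp) was again all on the lower-coordinate side. There 16 fragments covered the summit in GSK2879552 and 30 in vehicle. In these 3 sites the vehicle peak reached further from its summit on the side that lost more, by 281 against 117 bp, 277 against 121 bp and 226 against 167 bp. The same was true at chr7:139431783-139432179, chr2:41548644-41549037 and chr9:25442726-25443118. It was the other way at chr6:80131792-80132179, chr10:11758003-11758387, chr7:15547875-15548259 and chr20:52403529-52403912. There the losses on the lower- and higher-coordinate sides were 104 and 116 bp, 112 and 105 bp, 106 and 108 bp, and 125 and 88 bp.

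Large losses of width were not always matched by a drop in height. At chr6:80131792-80132179, 168 bp in GSK2879552 and 388 bp in vehicle, the summit had 13 fragments in both lists. The same was true at chr20:52403529-52403912, 171 bp in GSK2879552 and 384 bp in vehicle, with 16 fragments in both. The site at chr10:11758003-11758387 (168 bp in GSK2879552 and 385 bp in vehicle) had 12 fragments in GSK2879552 and 16 in vehicle. At chr7:15547875-15548259 (171 bp in GSK2879552 and 385 bp in vehicle) there were 15 fragments in GSK2879552 and 17 in vehicle. At chr7:139431783-139432179 (183 bp in GSK2879552 and 397 bp in vehicle) there were 12 in GSK2879552 and 17 in vehicle. The site at chr2:41548644-41549037 (184 bp in GSK2879552 and 394 bp in vehicle) had 14 fragments in GSK2879552 and 16 in vehicle, with 182 bp lost on the higher-coordinate side. Only at chr9:25442726-25443118, the last of the 10 largest, was the summit more than 2-fold lower, with 11 fragments in GSK2879552 and 27 in vehicle. Its ratio of 0.407 had an exact 95% interval of 0.182 to 0.849, counting error only. For the other 9 of these sites the interval of the fragment ratio included 1, so no difference in height was detectable at this depth.

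The strongest narrowed sites lost little more than the 80 bp the rule asks for, and all 10 had fewer fragments in GSK2879552. Fewer fragments were found at 89.5% of all narrowed sites and 77.5% of the 10873 pairs. The 10 were chosen for their vehicle −log10 p, a choice that favours high vehicle counts. The site with the highest vehicle −log10 p, chr3:194754191-194754550, was 265 bp wide with 60 fragments in GSK2879552, against 360 bp with 88 fragments in vehicle. The lowest ratio of these 10 (0.463, 0.292 to 0.718) was at chr2:38917941-38918285, with 31 fragments over 263 bp in GSK2879552 and 67 fragments over 345 bp in vehicle. Its lower-coordinate edge moved inward by 85 bp and the other edge outward by 3 bp. A less reduced site was chr3:12870904-12871292, 292 bp with 67 fragments in GSK2879552 and 389 bp with 72 in vehicle (ratio 0.931, 0.657 to 1.32). At chr10:33483089-33483476, with the highest local backgrounds of the 10 (11.02 fragments in GSK2879552 and 12.2 in vehicle), 98 fragments were counted in GSK2879552 and 113 in vehicle, and the interval spanned 303 bp in GSK2879552 and 388 bp in vehicle.

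The remaining strong sites lay between these. The summit at chr14:56269810-56270196 had 54 fragments in GSK2879552 and 68 in vehicle. That at chr11:75083333-75083704 had 40 in GSK2879552 and 59 in vehicle, and that at chr12:25788954-25789338 had 37 in GSK2879552 and 60 in vehicle. Each was lower in GSK2879552, as were the next 3. At chr10:68109469-68109864 there were 53 in GSK2879552 and 89 in vehicle, at chr5:141571990-141572368 there were 38 in GSK2879552 and 53 in vehicle, and at chr1:204140744-204141106 there were 42 in GSK2879552 and 54 in vehicle. Widths at these 6 sites ran from 278 to 307 bp in GSK2879552 and from 363 to 396 bp in vehicle. Over the 10 strongest sites the loss was 81 to 103 bp. The log2 ratio of fragments, GSK2879552 over vehicle and scaled for depth, was -1.11 to -0.11.

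**Figure D3:**
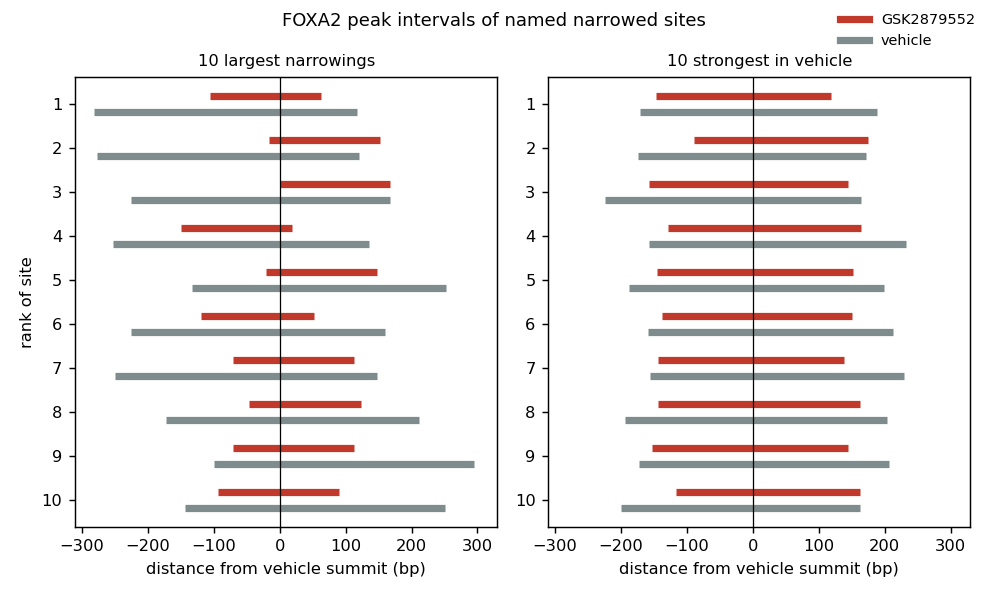
Peak intervals of the 10 narrowed sites with the largest losses (left) and the 10 with the highest vehicle −log10 p (right), drawn as distance in bp from the vehicle summit, with the GSK2879552 interval (red) above the vehicle interval (grey) at each rank. The losses at left are 209 to 230 bp and those at right are 81 to 103 bp. In both panels some losses fall mostly on one side. The GSK2879552 interval reaches past the vehicle summit on both sides at each site, except at rank 3 at left, where it starts at that summit.

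Summit height was lower in GSK2879552 at narrowed sites, by more at the median than at other pairs of like width. Narrowed summits had a median of 16 fragments (interquartile range 13 to 20, lowest 8, highest 170) in GSK2879552, against 23 (18 to 29, lowest 9, highest 168) in vehicle. The remaining pairs of like width had 23 (17 to 31) in GSK2879552 and 30 (22 to 41) in vehicle. The median log2 ratio was -0.52 (-0.77 to -0.26) at narrowed sites, a ratio of 0.699, and -0.35 (-0.59 to -0.12) at the remaining pairs, a ratio of 0.784. The 2 ranges overlap widely. Background shares were taken over the 10873 pairs that met every criterion except the width difference. Fewer fragments in GSK2879552 were found at 1666 narrowed sites (89.5%), against 77.5% of those pairs. The scaled ratio was at least 1.5-fold lower at 829 narrowed sites (44.5%), against 24.8%, and at least 2-fold lower at 208 (11.2%), against 4.07%. It was at least 1.5-fold higher at 2 narrowed sites (0.107%), against 0.809%. These shares rest on the same comparison that chose the sites.

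Within classes of similar vehicle width and height, narrowed pairs mostly had the lower ratio. The pairs of like width were split into 5 classes of vehicle width and 3 of vehicle fragments. In all 15 the median log2 ratio of narrowed pairs was below that of the remaining pairs, by 0.43 at most and 0.05 at least on the log2 scale. The gap was largest for vehicle widths of 280 to 309 bp with more than 30 fragments, at -0.88 for 66 narrowed and -0.45 for 731 remaining pairs. It was smallest for widths of 370 to 399 bp with 20 fragments or fewer, at -0.10 for 51 narrowed and -0.04 for 18 remaining pairs. The class of more than 30 fragments has no upper limit. In the 465 pairs with 61 or more vehicle fragments the order was the other way, at -0.34 for 19 narrowed pairs and -0.40 for the remaining ones. Over all pairs of like width the loss of width and the log2 ratio were only loosely related (Spearman's rho -0.20 over 7741 pairs that share both libraries), and among the narrowed pairs hardly at all (-0.05 over 1862). By size of loss, the median log2 ratio was -0.49 at 80 to 99 bp (862 sites), -0.53 at 100 to 119 bp (482), -0.56 at 120 to 149 bp (355) and -0.52 at 150 bp or more (163).

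**Figure D4:**
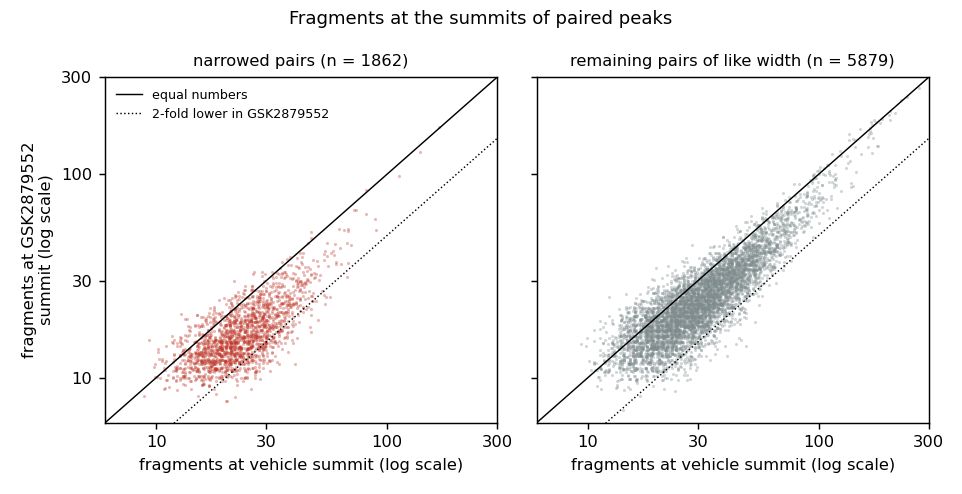
Fragments at the GSK2879552 summit (vertical, log scale) against fragments at the vehicle summit (horizontal, log scale), 1 point per pair with a small random offset, for 1862 narrowed and 5879 remaining pairs of like width. Narrowed pairs lie lower and to the left, with medians of 16 (GSK2879552) and 23 (vehicle) fragments; the solid line marks equal numbers and the dotted line a number 2-fold lower in GSK2879552.

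The sites with the most extreme ratios show the range within the group. The lowest was at chr6:136002471-136002790, with 12 fragments in GSK2879552 and 40 in vehicle (ratio 0.300, 0.143 to 0.583) and a width of 196 bp in GSK2879552 and 320 bp in vehicle. Next came chr5:72837407-72837697 with 9 fragments in GSK2879552 and 26 in vehicle, and chr15:41115837-41116097 with 13 in GSK2879552 and 37 in vehicle. At chr3:24364760-24365051 there were 12 in GSK2879552 and 34 in vehicle, and at chr10:95786856-95787228 there were 11 in GSK2879552 and 31 in vehicle. The interval of the ratio lay below 1 at each of these 5, which were chosen for their ratio. The highest ratio was at chr7:143423631-143423916, with 15 fragments in GSK2879552 and 9 in vehicle (1.67, 0.683 to 4.32), although its interval was 190 bp wide in GSK2879552 and 286 bp in vehicle. At chr4:159531954-159532239 there were 21 fragments in GSK2879552 and 13 in vehicle, and at chr4:145578946-145579329 there were 19 in GSK2879552 and 13 in vehicle. The site chr18:56529903-56530159 had 14 fragments in GSK2879552 and 10 in vehicle, and chr7:63994413-63994805 had 30 in GSK2879552 and 22 in vehicle. The interval of the ratio included 1 at all 5 of the highest.

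A minority of sites narrowed with no drop in height. At 196 narrowed sites (10.5%, 9.17 to 12.01) the GSK2879552 summit had as many fragments as the vehicle summit or more, with medians of 19 in GSK2879552 and 17 in vehicle. Among the remaining pairs of like width this was so at 992 of 5879 (16.9%, 15.9 to 17.9). The 196 intervals had a median width of 220 bp in GSK2879552 and 333 bp in vehicle, and both edges lay further in at 83.2% of them. The 308 sites at the shortest GSK2879552 width had lower summits, with medians of 12 fragments in GSK2879552 and 19 in vehicle. They make up 22.8% of the 1349 GSK2879552 peaks of that width.

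The summits of narrowed sites stood closer to the calling limit. From each list's lowest −log10 p (4.49 in GSK2879552 and 4.01 in vehicle) and the local background of each summit, the number of fragments needed for a call was computed. At narrowed sites it had a median of 9 in GSK2879552 and 8 in vehicle. The summit was a median of 1.75 times that number (interquartile range 1.5 to 2.11) in GSK2879552 and 2.71 times (2.25 to 3.25) in vehicle. The remaining pairs of like width stood at 2.38 times (1.91 to 3) in GSK2879552 and 3.20 times (2.57 to 4.09) in vehicle. Local background itself had a median of 1.63 fragments in GSK2879552 and 1.75 in vehicle at narrowed sites. The number needed was higher in GSK2879552 at 37.4% of narrowed sites, equal at 52.3% and lower at 10.3%, against 43.1% higher, 47.4% equal and 9.51% lower over all 10873 pairs; its part in the loss of width was not tested. In the authors' deposited table for GSK2879552, the −log10 q was under 5 at 305 narrowed sites (16.4%, 14.7 to 18.1) and at 213 remaining pairs (3.62%, 3.16 to 4.13).

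The narrowed share was lower for taller vehicle summits and higher for wider vehicle peaks. Of pairs of like width, 24.1% were narrowed. The share was 39.8% (35.6 to 44.2) where the vehicle summit had 15 fragments or fewer, 31.1% (28.7 to 33.5) at 21 to 25 fragments, 17.1% (15.3 to 19.1) at 31 to 40 and 4.09% (2.48 to 6.31) at 61 or more. By vehicle width it was 17.5% (15.9 to 19.2) at 248 to 279 bp, 25.1% (23 to 27.2) at 310 to 339 bp and 36.7% (33 to 40.4) at 370 to 399 bp. The rise with width is partly fixed by the rule. A vehicle peak of 248 bp could qualify only at the shortest GSK2879552 interval of 168 bp, whereas wider peaks had more to lose. Narrowed sites were wide for their height. At 370 to 399 bp, narrowed pairs had a median of 28 vehicle fragments and remaining pairs 46. In that class the log2 ratio was about equal, at -0.36 for narrowed and -0.39 for remaining pairs, when vehicle height was not held alike.

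**Figure D5:**
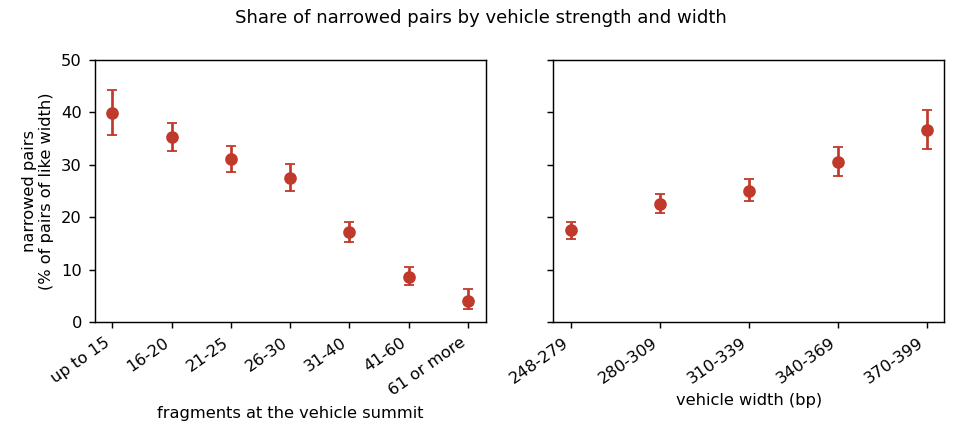
Share of narrowed pairs in percent of the 7741 pairs of like width (vertical axis), by fragments at the vehicle summit (left) and by vehicle width in bp (right), with exact 95% binomial intervals that cover counting error only. The share is 39.8% in the lowest and 4.09% in the highest class of fragments, and 17.5% in the narrowest and 36.7% in the widest class of vehicle width. The rise with width is partly fixed by the rule.

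Narrowed sites were spread over the genome. Another vehicle summit lay within 10 kb of 526 narrowed sites (28.2%, 26.2 to 30.4) and of 31.9% (30.7 to 33.1) of the remaining pairs, and within 1 kb of 81 (4.35%) and 4.95%. Among 593 neighbouring pairs of like width within 10 kb of each other, both were narrowed in 30 cases. The neighbour of a narrowed site was itself narrowed in 25.3% of cases (19.9 to 31.4), near the 24.1% of all pairs of like width. The closest such neighbours were 468 bp apart at chr14:50375175-50375487 and chr14:50375689-50376010. The first had 25 fragments in GSK2879552 and 21 in vehicle, and the second 24 in GSK2879552 and 37 in vehicle. The window chr14:50000001-51000000, which holds them, was the 1 Mb window with the most narrowed sites, 6 of 11 pairs of like width. A further 13 windows held 5, each among 6 to 17 pairs of like width.

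All 23 chromosomes carried narrowed sites. Among the 21 chromosomes with 100 or more pairs of like width, chromosome 17 had the lowest narrowed share (18.1%, 13.3 to 23.8) and chromosome 13 the highest (34.8%, 27.9 to 42.2). The interval of the share covered the value for all pairs on 18 of the 21; chromosome 12 (28.4%, 24.1 to 33.1) and chromosome 13 lay above it and chromosome 17 below. Vehicle heights differed too, with a median of 22 fragments on chromosome 13 and 32 on chromosome 17, and their part in the shares was not tested. The median log2 ratio of narrowed sites was below 0 on each of the 23 chromosomes. The median over all 10873 pairs was itself -0.32, so a value below 0 is not particular to narrowed sites. High-background positions (a local background of 25 fragments or more in either list) were few among narrowed sites, 3 of 1862. One was chr2:92312730-92313107, with 170 fragments in GSK2879552 and 168 in vehicle over backgrounds of 90.2 in GSK2879552 and 94.4 in vehicle, and both others lay within 10 kb of each other on chromosome 16. Such positions made up 0.161% of narrowed sites and 0.782% of the remaining pairs of like width.

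Pairs on either side of the 80 bp limit had the same median vehicle height. The 263 pairs with a loss of 80 to 84 bp had medians of 16 fragments in GSK2879552 and 24 in vehicle, and the 228 pairs with a loss of 75 to 79 bp had 17.5 in GSK2879552 and 24 in vehicle. The median log2 ratio was -0.51 inside the limit and -0.40 outside it. Of those with exactly 80 bp, the strongest was chr3:24000811-24001163, 273 bp with 44 fragments in GSK2879552 and 353 bp with 63 in vehicle. It was followed by chr4:56144486-56144884 with 32 fragments in GSK2879552 and 47 in vehicle, and chr1:62008440-62008815 with 39 in GSK2879552 and 43 in vehicle. Just outside, with 79 bp, were chrX:9430996-9431302 with 24 fragments in GSK2879552 and 48 in vehicle, chr12:25992394-25992756 with 39 in GSK2879552 and 58 in vehicle, and chr3:182846506-182846827 with 32 in GSK2879552 and 55 in vehicle. The widened pairs, for comparison, had medians of 17 fragments in GSK2879552 and 16 in vehicle, and a median log2 ratio of 0.00 (interquartile range -0.30 to 0.28).

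Depth was similar in the 2 libraries, 6.44 reads per kb in GSK2879552 and 6.17 in vehicle, provided that the peak caller took its background from the immunoprecipitated library itself. At this depth most narrowed summits rest on fewer than 30 fragments, and the intervals of single ratios given above are wide.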

How the data were processed

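The submitters' processing notes name BWA 0.7.2 and SAMtools 0.1.18, the peak caller MACS2 2.1.2 and build hg19 (GRCh37). Not given in the sources used here were its options and threshold, duplicate handling and any control library. Each deposited list has an interval and a summit per peak. The deposited fold is fragments at the summit plus 1 over local background plus 1. The deposited −log10 p and −log10 q come from the authors' peak caller. The deposited score, a whole number, is 10 times the −log10 q, rounded down, for 100% of GSK2879552 and 99.9953% of vehicle peaks. All describe peaks within a list.

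Whole fragment numbers and backgrounds were computed from fold and −log10 p. A whole number fitted within 0.001 for 100% of peaks in both lists, and 100% of 2121 simulated GSK2879552 and 3044 simulated vehicle summits were recovered. Of 200 simulated intervals narrowed by known lengths of at least 80 bp, 200 were found. They met the rule by construction and had no noise in width, so this checks the code only. Log2 ratios were scaled by the lowest backgrounds, 1.082 in GSK2879552 and 1.079 in vehicle. Overlaps were checked with bedtools 2.31.1. Shares and fragment ratios carry exact 95% binomial intervals.

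The members, classes and limits were chosen with earlier results of these data known. Sites named are the 10 largest losses, the 10 highest vehicle −log10 p, the 5 highest and 5 lowest ratios, and 3 on either side of the limit. Neighbouring pairs, windows and high-background sites were named after their values were seen. Genes and sequence were not analysed here.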

Additional observations from a re-analysis of the deposited data

How the results depend on the processing

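With a loss of at least 60 or 100 bp in place of 80, 3099 or 1000 pairs were narrowed, 7.97 or 13.0 for each widened pair, and 82.1% or 90.3% had both edges inward; at 60 bp the median log2 ratio was -0.48. With both lists at a −log10 q of at least 10, 513 pairs were left, 13.5 for each widened pair, 89.7% with both edges inward, a median log2 ratio of -0.37, 30 vehicle fragments and 16.4% with a neighbour within 10 kb. At a −log10 q of at least 5 the median vehicle fragments were 24 and the neighbour share 25.05%. Both neighbour shares are lower by construction, since fewer vehicle peaks are left. With summits 40 bp or less apart, 89.7% had both edges inward and the vehicle median was 24; it was also 24 with no limit on width and without the shortest GSK2879552 intervals. Subtracting the local background from the fragments moved the median log2 ratio to -0.56. Differences from the median difference gave 664 narrowed pairs and a ratio of 1.11, and widths less each list's shortest interval a ratio of 5.91. These values, and those without the shortest intervals, were added after seeing the data. Beyond fewer sites by construction, the cause was not tested. The log2 ratio was below 0 under each of the 10 settings run for it. The median over all 10873 pairs was also below 0, at -0.32. Motif counts were not run, nor was leaving out a lane, as no list is for 1 lane. No paired analysis was possible because the lanes of a group share a single list.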
